A study of Mus musculus with 179 samples.

Results

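Cells of mouse pancreatic organoids were divided by their level of Clu, the gene for clusterin, and every other gene was compared between the cells with much and the cells with little of it. Counts are UMIs (unique molecular identifiers, each marking 1 captured RNA molecule), and levels are CPM, the UMIs of a gene in 1000000 UMIs of the cell or class. Of all cells measured, 47 were Clu-high, with at least 10000 CPM of Clu, and 41 were Clu-low, with less than 5000 CPM, which together is 49.2% of the series. A further 67 cells lay between these limits. Left out were 18 cells with fewer than 40000 UMIs and 6 cells rich in fibroblast genes. The classes were thus chosen by the measured level of Clu, which is described here and supports nothing further.

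The cells came from exocrine pancreas of wild-type C57BL6 mice. Acinar cells, which make and secrete digestive enzymes, were freed from the tissue by digestion, enriched on a density gradient and kept for 9 days as 3D organoids in Matrigel, a gel of basement membrane proteins. RNA was read in each cell by Smart-seq3, which sequences full-length transcripts in plates and counts molecules by UMI, within a protocol that also reads the cell's epigenome, which was not analysed here. All cells carry the same labels and no animal or culture is named for any of them, so cells are not replicates, no test or p-value is given, and intervals cover counting error only.

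Clusterin is a secreted glycoprotein that binds misfolded proteins outside the cell and is taken up through cell surface receptors, among them the products of Lrp2 and Lrp8. It is abundant in many fluids and is known as a gene that epithelia turn on during injury, involution and stress. In the normal exocrine pancreas it is low, and it is known from inflamed pancreas and from acinar cells that turn into duct-like cells.

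Clu, on chr14:65968483-65981547 (GRCm38, forward strand), was detected in every cell kept and formed a continuous range. In the Clu-high cells its level was 10051 CPM at the lowest, 12607 at the median and 27648 at the highest, in the cell Acinar172. In the Clu-low cells it was 2397 CPM at the lowest, in Acinar152, 3973 at the median and 4989 at the highest. No gap separated the classes from the cells between them. Just inside the upper limit stood Acinar102 at 10051 and Acinar87 at 10133 CPM, and just outside it Acinar177 at 9921 and Acinar144 at 9843 CPM. At the lower limit, Acinar127 at 4989 and Acinar13 at 4846 CPM were inside, and Acinar45 at 5109 and Acinar148 at 5121 CPM outside. At the depth limit, Acinar101 with 41560 UMIs was kept and Acinar15 with 35157 was not. Of the 18 shallower cells, 8 would have been Clu-high and 0 Clu-low.

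**Figure D1:**
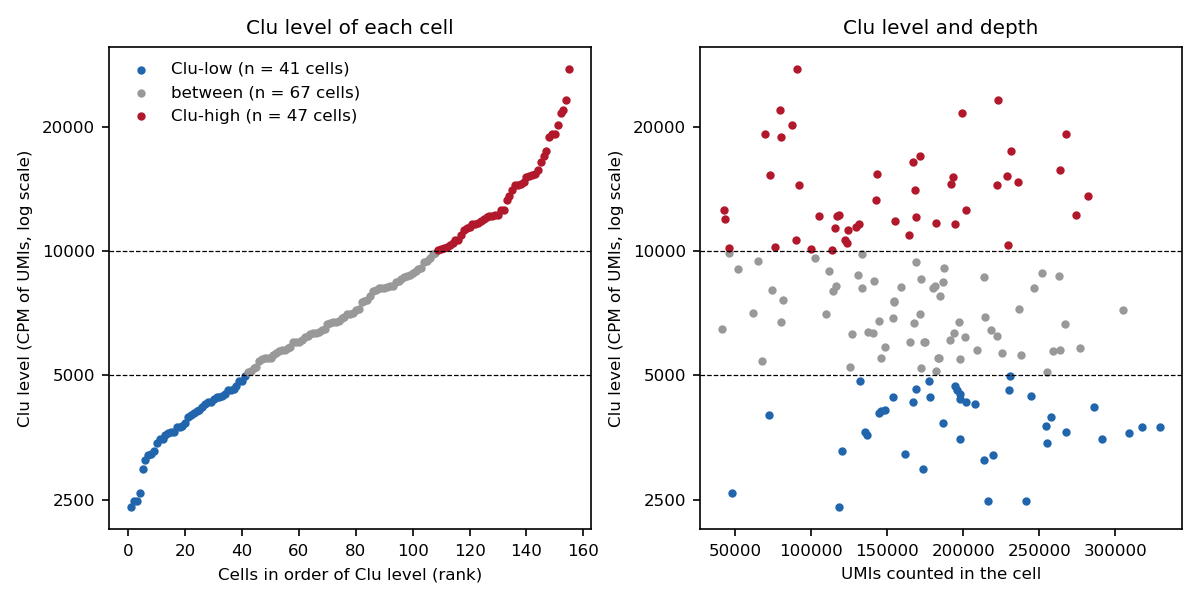
Clu level (CPM of UMIs, log axis) of each of the 88 cells of both classes and the 67 between, in order of rank (left) and against the UMIs counted in the cell (right); each point is 1 cell, dashed lines mark 5000 and 10000 CPM. The levels run without a gap from 2397 to 27648 CPM, and the Clu-low cells tend to be the more deeply counted.

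The classes also differed in depth and in RNA make-up. Median depth was 142428 UMIs in Clu-high cells (42594 to 282317) and 197643 in Clu-low cells (47789 to 329522), with 11431 and 12020 genes detected at the median. The median share of mitochondrial UMIs was 1.14% and 0.826%, and that of ribosomal protein genes 9.43% and 10.3%. Clu-high cells were 18 of the 77 cells with title numbers up to 96 and 29 of the 78 from 97 on, and Clu-low cells 26 and 15, so values for these title ranges are given where they differ by much. The sources used here do not say what the title numbers stand for.

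Over 10223 genes with at least 10 CPM in both classes pooled, 1237 were higher in Clu-high cells, 12.1% of those compared, and 1152 were lower, 11.3%. The counts given below for gene lists are to be read against these shares. A gene was called higher when both its ratio of pooled CPM and its ratio of cell medians, each with 5 CPM added, were at least 1.5, and lower when both were at most the inverse; all ratios of single genes below are pooled ratios with 5 CPM added. Ratios of at least 4 were reached by 52 of the higher and 78 of the lower genes, and the median ratio over all genes was 1.01. The 67 cells between the limits, which the comparison did not use, had a pooled level between those of the classes for 96.8% of the higher and 88.9% of the lower genes, against 66.8% of all genes compared. Most called genes thus had a pooled level inside the gap between the classes in the cells of intermediate Clu. Called genes were chosen from these data for a wide gap, while the other genes compared were not. A level inside the gap is easier to reach when the gap is wide, so 66.8% is not a like-for-like reference. Whether levels change gradually with Clu was not tested by these shares.

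**Figure D2:**
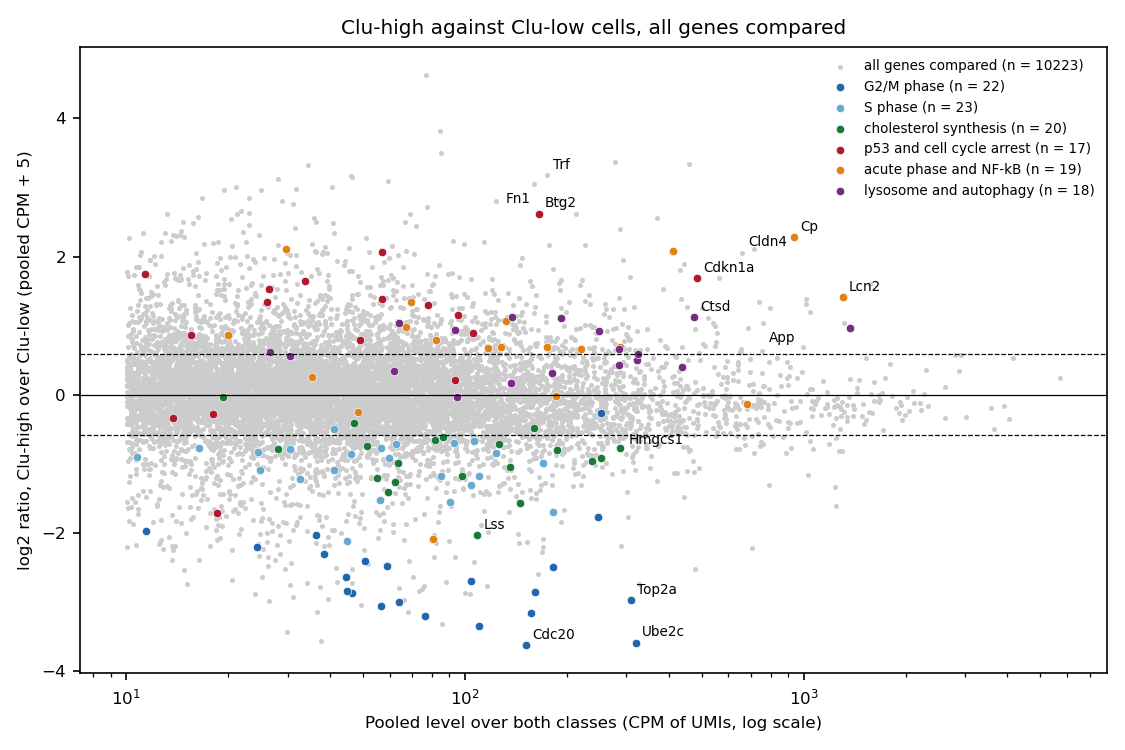
Log2 ratio of pooled CPM with 5 added, Clu-high over Clu-low, against the pooled level over both classes (log axis) for 10223 genes; colours mark 6 gene lists and dashed lines a ratio of 1.5 either way. Genes of the G2/M and S phases and of cholesterol synthesis lie below 0, and most genes of the p53, acute phase and lysosome lists above it.

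Promoters of 4 genes, from gene lists that differed between the classes, are shown before the values. They are marked for elements known from such genes. Any link of an element to the difference was not tested. Sequences are those of RefSeq (GRCm38.p6), from 250 bases before to 50 after the start site, 5′ to 3′ on the gene's strand. Capitals mark, on either strand, the element TTTGAA (the core of the cell cycle homology region, CHR) and CCAAT boxes in Cdc20 and Ube2c. In Hmgcs1 they mark CCAAT boxes and the sterol element TCACNCCAC, and in Ankrd1 the TEAD element GGAATG. Cdc20 and Ube2c were picked by their ratio. Hmgcs1 and Ankrd1 were picked only among genes whose promoter held the sterol or TEAD element, so those matches were fixed by the choice. Cdc20 lies at chr4:118437294-118437593 on the reverse strand, Ube2c at chr2:164769679-164769978 and Hmgcs1 at chr13:119690101-119690400 on the forward strand, and Ankrd1 at chr19:36119795-36120094 on the reverse strand.
Cdc20: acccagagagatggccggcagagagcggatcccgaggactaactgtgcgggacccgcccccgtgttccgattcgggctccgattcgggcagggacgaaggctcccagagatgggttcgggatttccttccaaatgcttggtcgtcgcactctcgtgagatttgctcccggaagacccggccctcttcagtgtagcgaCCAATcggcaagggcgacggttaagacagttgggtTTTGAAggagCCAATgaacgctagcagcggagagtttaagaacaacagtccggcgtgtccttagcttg
Ube2c: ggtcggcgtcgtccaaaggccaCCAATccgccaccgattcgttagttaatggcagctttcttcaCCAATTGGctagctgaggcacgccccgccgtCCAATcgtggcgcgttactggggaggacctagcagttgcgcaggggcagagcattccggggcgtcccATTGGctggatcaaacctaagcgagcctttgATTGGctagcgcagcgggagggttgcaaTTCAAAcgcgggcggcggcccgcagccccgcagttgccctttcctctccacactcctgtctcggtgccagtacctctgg
Hmgcs1: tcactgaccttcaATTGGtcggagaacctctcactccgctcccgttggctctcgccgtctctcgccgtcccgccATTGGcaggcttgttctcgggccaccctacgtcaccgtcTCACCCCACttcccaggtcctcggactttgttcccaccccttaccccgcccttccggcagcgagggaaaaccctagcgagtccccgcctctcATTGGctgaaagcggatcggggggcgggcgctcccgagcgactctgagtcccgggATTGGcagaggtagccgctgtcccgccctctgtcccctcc
Ankrd1: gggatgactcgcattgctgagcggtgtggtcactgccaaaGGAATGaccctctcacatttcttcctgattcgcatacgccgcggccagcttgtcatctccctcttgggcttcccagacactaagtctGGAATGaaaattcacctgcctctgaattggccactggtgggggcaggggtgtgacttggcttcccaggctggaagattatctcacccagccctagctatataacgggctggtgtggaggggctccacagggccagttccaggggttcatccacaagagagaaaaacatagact

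TTTGAA stood in 13 of the 18 listed G2/M genes with a promoter entry (72.2%), against 20.2% of the 27025 genes with an entry and 13.9% of the 7543 compared genes with an entry. It stood in 23.0% of the lower and 12.2% of the higher genes. In Cdc20 it began 18 bases and in Ube2c 29 bases before the start site. CCAAT boxes stood in 16 of those 18 G2/M genes and in 12 of 12 cholesterol synthesis genes, against 41.1% of all entries. They also stood in 13 of 20 S phase genes and in 11 of 16 genes of the p53 list (68.8%), which was mostly higher in Clu-high cells. The AP-1 element TGANTCA stood in 0 of 17 immediate early genes with an entry, against 8.97% of all. The sterol element TCACNCCAC stood in 1 of the 12 cholesterol genes, Hmgcs1, against 1.44% of all, and GGAATG in 8 of 15 YAP target genes (53.3%) against 16.6%. These are matches of letters in a window, with no measurement of binding.

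Genes of mitosis were far lower in Clu-high cells. All 22 listed G2/M genes were compared, 21 were lower in Clu-high cells and 0 higher, with a median ratio of 0.15. Their summed level was 76.6 CPM at the lowest, 383 at the median and 4983 at the highest in Clu-high cells, and 62.8, 3087 and 8946 CPM in Clu-low cells. The pooled level was 699 CPM (95% Poisson interval 679 to 718) against 4152 CPM (4108 to 4196). The classes overlapped at their edges, and 44 of the 47 Clu-high cells were below the Clu-low median. Only Stmn1, a microtubule regulator active beyond mitosis as well, did not pass, at 226 against 274 CPM.

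Cdc20, which activates the anaphase-promoting complex, had the lowest ratio of all genes called. It was at 0, 9.52 and 154.5 CPM (lowest, median, highest) in Clu-high cells and at 0, 121.4 and 947 CPM in Clu-low cells, 12.3-fold lower when pooled. Ube2c, the ubiquitin-conjugating enzyme of the same complex, was at a pooled 42.3 against 562 CPM, 12-fold lower. Acinar158 alone held 51.2% of the Clu-high UMIs of Ube2c. Plk1, the mitotic kinase, was at 10.04 against 133.8 CPM, and 46.5% of its Clu-high UMIs were in the same cell. Mki67, the proliferation marker, was at 0, 0 and 312 CPM in Clu-high cells and 0, 248 and 859 in Clu-low cells. Mki67 was detected in 21 of 47 Clu-high and 38 of 41 Clu-low cells. Top2a, which untangles replicated DNA, was 7.84-fold lower, with medians of 11.99 and 505 CPM. Cenpf, Hmmr, Tpx2, Ckap2l and Cenpa, of the spindle and kinetochore, were 7.81-fold to 10.2-fold lower. So were Pif1 and Cdc25c, a helicase and a phosphatase of the cell cycle, at 11.8-fold and 8.87-fold. Kif4, a chromosome-bound kinesin, was 8.84-fold lower, but Acinar93 alone held 513 of its Clu-low UMIs, and without that cell it was 4.47-fold lower. Knl1, a kinetochore scaffold, was 8.20-fold lower with all cells and 5.13-fold lower without Acinar65, which held 41.4% of its Clu-low UMIs. Single cells thus held large shares of the Clu-high UMIs of some mitotic genes. The shares were smaller for others, with 21.3% of Cdc20 and 17.9% of Tpx2 in the richest Clu-high cell, Acinar132. The median Clu-high cell had little mitotic RNA.

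DNA replication genes were also lower. Of 23 listed S phase genes, all compared, 22 were lower and 0 higher, with Slbp at 32.8 against 48.5 CPM not past the fold. The summed level was 76.6, 420 and 4938 CPM in Clu-high cells and 202, 2092 and 4117 CPM in Clu-low cells, so that Clu-high cells reached as high as Clu-low cells although their median was far lower. Rrm2 and Rrm1, the subunits of ribonucleotide reductase, were 4.34-fold and 3.25-fold lower. Pcna, the sliding clamp of DNA polymerase, had medians of 53.97 and 212 CPM and was 1.97-fold lower when pooled.

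Genes that p53 switches on or that stop the cell cycle were higher. Of 17 compared, 12 were higher and 1 lower, with a median ratio of 2.46, and the summed level was 427, 1828 and 4367 CPM in Clu-high cells and 292, 668 and 2316 CPM in Clu-low cells. Pooled, this was 2052 against 758 CPM, a ratio of 2.71 (2.63 to 2.79), and 42 of 47 Clu-high cells were above the Clu-low median. Btg2, an antiproliferative gene that is both an early response gene and a p53 target, was at 43.6, 235 and 819 CPM in Clu-high cells and at 0, 30.8 and 419 CPM in Clu-low cells. All 47 Clu-high cells were above the Clu-low median of Btg2, and the ratio was 6.15. Cdkn1a, which encodes the cyclin-dependent kinase inhibitor p21, was at 17.3, 670 and 2627 CPM against 25.3, 115.5 and 1254 CPM, a ratio of 3.23. The ranges overlapped almost whole while the medians lay far apart. Trp53inp1, Eda2r and Zmat3, further p53 targets, had ratios of 4.19, 3.35 and 3.12. Eda2r was close to the least level compared. Without Acinar132, which held 17.3% of its Clu-high UMIs, its ratio was 2.93 and it was no longer called. The exception was Cdkn2c, which encodes the inhibitor p18, at 5.65 against 29.8 CPM. Cdkn2a and Cdkn1b, at 15.7 and 11.5 CPM in Clu-high and 20.1 and 15.8 CPM in Clu-low cells, did not pass; these were singled out after their values were seen.

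Regulators of apoptosis of opposite action were higher together. Of 18 compared, 7 were higher and 0 lower. The killing side was represented by Bbc3 (PUMA) and Pmaip1 (NOXA), with ratios of 2.52 and 2.44, and by Bcl2l11 (BIM) with 1.98. Of the protective genes, Bcl2l1 (BCL-XL) was at 38.7, 213 and 489 CPM in Clu-high and 0, 96.3 and 234 CPM in Clu-low cells, a ratio of 2.19. Cflar, which blocks caspase 8, had a ratio of 1.76. Bax, whose protein clusterin is known to bind inside cells, was at 256 against 201 CPM and did not pass.

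**Figure D3:**
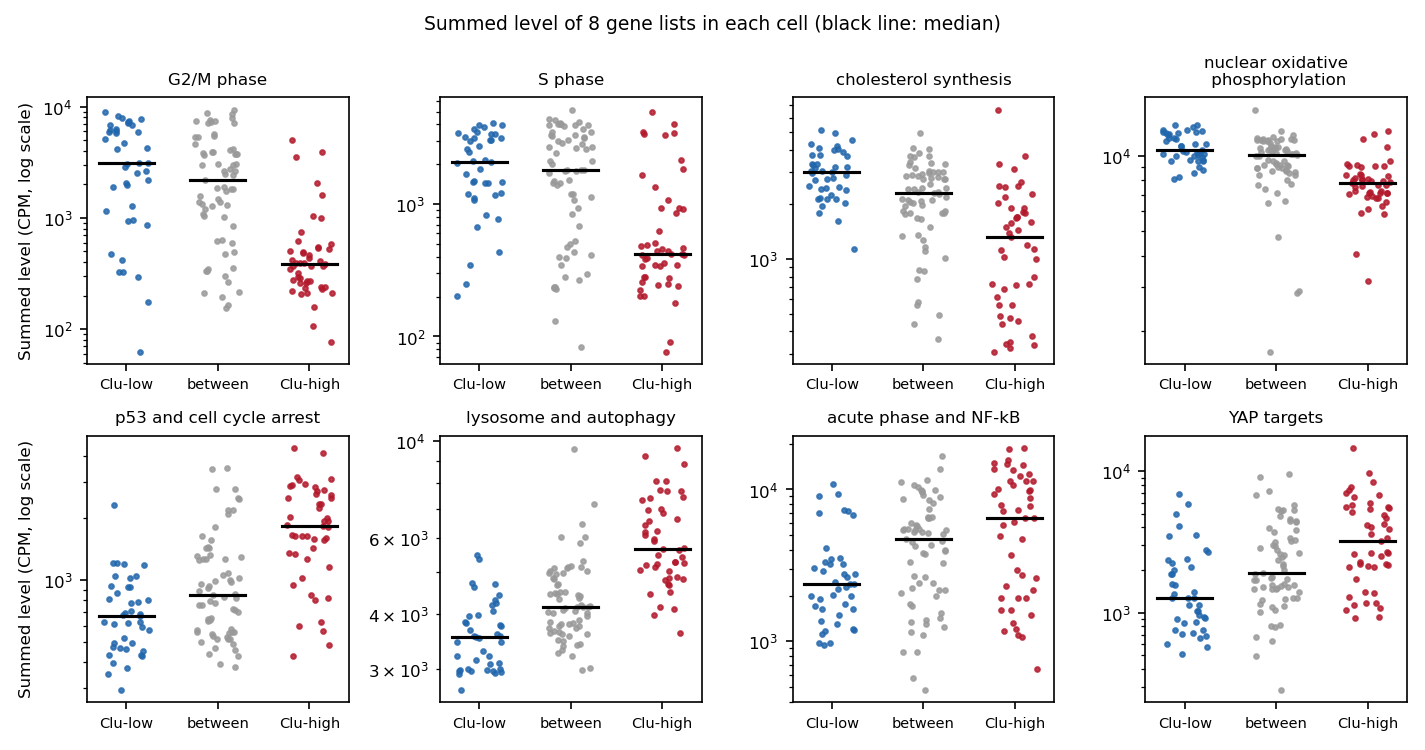
Summed level (CPM, log axis) of 8 gene lists in each cell by class: 41 Clu-low, 67 between and 47 Clu-high cells; each point is 1 cell and black lines are medians. The G2/M median is 3087 CPM in Clu-low and 383 in Clu-high cells, the p53 median 668 and 1828, and the median of the cells between lies between these for all 8 lists.

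Genes of the acute phase and of NF-kB signalling were higher in most but not all Clu-high cells. Of 19 compared, 13 were higher and 1 lower. The summed level was 652, 6519 and 18736 CPM in Clu-high cells and 943, 2372 and 10821 CPM in Clu-low cells, pooled 7004 against 3309 CPM. The lowest cell of both classes was Clu-high, and 33 of 47 were above the Clu-low median. The pooled ratio was 2.84 in cells with title numbers up to 96 and 1.398 from 97 on. Cp, which encodes the copper carrier ceruloplasmin, was at 0, 1242 and 7879 CPM in Clu-high cells and 0, 99.5 and 1753 CPM in Clu-low cells, a ratio of 4.86. Cp overlaps Hps3, and the sources used here do not say whether the counting used strand. Lcn2, an iron-withholding protein of inflamed epithelium, was at 10.04, 1702 and 7406 CPM against 6.99, 233 and 3571 CPM, a ratio of 2.67. Lif, a cytokine of the IL-6 family, and Relb, an NF-kB subunit, had ratios of 4.33 and 2.55, and 95.7% of Clu-high cells were above the Clu-low median of Relb. Ccl20, a chemokine that NF-kB also drives, was lower, at 26.1 against 127.7 CPM, with 30.5% of the Clu-low UMIs in Acinar181.

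Complement and antigen presentation were partly higher. Of 11 compared genes of complement and protease inhibitors, 5 were higher and 1 lower. C3, the central complement protein, was at 0, 402 and 2793 CPM in Clu-high and 0, 45.6 and 989 CPM in Clu-low cells, a ratio of 4.24, and Slpi, a secreted protease inhibitor, had 3.45. Wfdc2, another inhibitor of this family, was 2.09-fold lower. Of 12 compared interferon and antigen presentation genes, 6 were higher and 0 lower. Ifitm3, a membrane protein that restricts viral entry, had a ratio of 10, but it was detected in 27 of 47 Clu-high cells only, at 0, 21.2 and 612 CPM, and in 10 of 41 Clu-low cells. B2m, the light chain of MHC class I, was at 258 against 127.01 CPM at the median, a ratio of 1.96, while H2-D1 and H2-K1 did not pass. Immune cell markers summed to 16.3 CPM in Clu-high and 4.799 CPM in Clu-low cells, with 0 of 10 reaching the level for comparison, and the highest cell, Acinar108, had 259 CPM; their part in these values was not tested.

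Genes of mechanical and early responses were higher as well. YAP targets, which report on YAP and TEAD activity, were higher for 9 of 20 compared and lower for 0, with a summed level of 924, 3199 and 14539 CPM in Clu-high cells and 512, 1273 and 6845 CPM in Clu-low cells. Ccn2, a matricellular protein, had a ratio of 3.27. Ankrd1, a nuclear cofactor and the most abundant target, was at 0, 517 and 10414 CPM against 0, 103.6 and 4469 CPM, a ratio of 2.30, with 26.1% of the Clu-low UMIs in Acinar74. Its promoter, printed above, was chosen among those that hold GGAATG, and has it at 2 places. Immediate early genes were higher for 10 of 21 and lower for 1, Klf4, at 195 against 298 CPM. Ier3, which dampens apoptosis, and Dusp1, a phosphatase of MAP kinases, had ratios of 3.50 and 3.47. Jun and Atf3, subunits of AP-1 type factors, had 1.98 and 2.20. Fos, at 333 against 316 CPM, did not pass, although it belongs to the same early group.

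The genes by which epithelium holds to basement membrane followed. Of 22 compared, 12 were higher and 1, Lamc1, lower, at 51.9 against 90.8 CPM. Lamb1, a laminin chain, had a ratio of 5.61 and Itgav, an integrin subunit, 2.47. Itgb4, the hemidesmosome integrin, was at 43.3, 316 and 708 CPM in Clu-high cells and 37.4, 123.5 and 755 CPM in Clu-low cells, a ratio of 2.02. Cd44, the hyaluronan receptor, had medians of 703 and 205 CPM and a ratio of 2.40. The widest ratios outside the lists included secreted and matrix-linked genes. Fn1, fibronectin, was at 0, 116.9 and 2361 CPM against 0, 5.11 and 257 CPM, a ratio of 8.27, and Tns1, a focal adhesion adaptor, had 7.01. Serpine2, a protease inhibitor, had 7.91, and Acinar132 held 29.05% of its Clu-high UMIs.

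These matrix genes are also made by fibroblasts, so fibroblast markers are given beside them. The 13 markers summed to 0, 5.48 and 2539 CPM in Clu-high cells and to 0, 0 and 74.7 CPM in Clu-low cells, pooled 51.7 against 3.94 CPM. Only Rgs5, a pericyte gene, reached the level for comparison, and 73.3% of its Clu-high UMIs were in Acinar172. Of the 21 Clu-high UMIs of Pdgfrb, 90.5% were in Acinar108. Without Acinar22, Acinar55, Acinar108, Acinar158 and Acinar172, the matrix adhesion list had a ratio of 1.55 against 1.496 with them. The 6 fibroblast-rich cells left out were all below 5000 CPM of Clu, and with them put back into the Clu-low class the ratio of Lamb1 was 0.97 and that of Serpine2 0.40. Their higher level in Clu-high cells therefore holds among the other cells only.

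Lysosomal and autophagy genes were higher in Clu-high cells with little exception from cell to cell. Of 18 compared, 9 were higher and 0 lower. The summed level was 3623, 5651 and 9636 CPM in Clu-high cells and 2677, 3547 and 5482 CPM in Clu-low cells, and each of the 47 Clu-high cells was above the Clu-low median. Over all cells kept (88 of both classes and 67 between) the Spearman rho of this sum with Clu was 0.71, as a description of cells whose CPM values share a total. Ctsd, the aspartic protease of lysosomes, was at 177.3, 556 and 1731 CPM against 93.6, 216 and 1817 CPM, a ratio of 2.18. Ctsl, a cysteine protease and the most abundant of the list, had 1.95. Cd63, Lamp2 and Grn, of the lysosomal membrane and lumen, had 2.15, 2.05 and 1.91. Map1lc3b, which encodes the autophagosome protein LC3B, had 2.19, but it overlaps Gm20388 and the reads of the pair may not be separable.

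**Figure D4:**
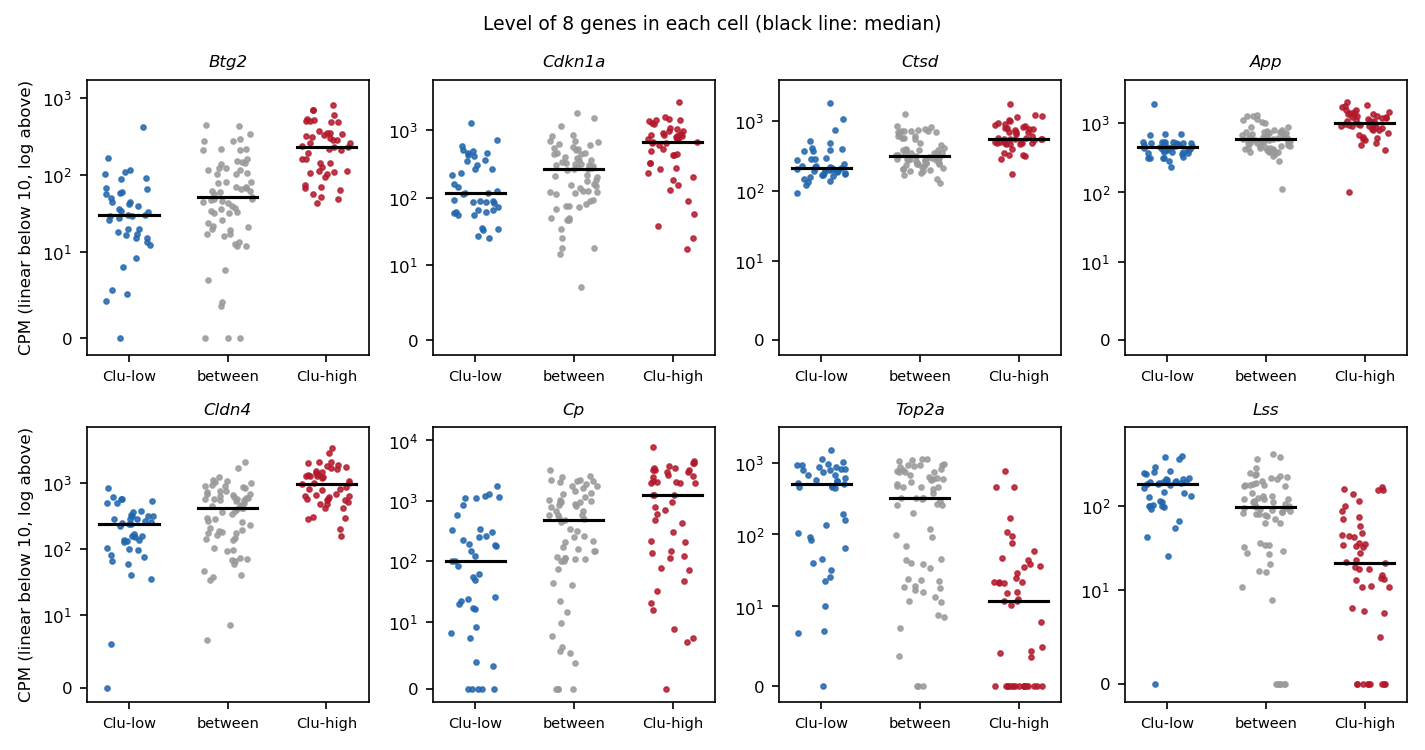
Level of 8 genes (CPM, linear below 10 and log above) in each cell by class: 41 Clu-low, 67 between and 47 Clu-high cells; each point is 1 cell and black lines are medians. All Clu-high cells lie above the Clu-low median of Btg2 and below that of Lss, while Cp spans a wide range in both classes.

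Cholesterol synthesis was lower across nearly the whole pathway. Of 20 genes compared, 17 were lower and 0 higher, with a median ratio of 0.55. The summed level was 309, 1322 and 6649 CPM in Clu-high cells and 1135, 3028 and 5146 CPM in Clu-low cells. The highest cell of both classes was Clu-high, but 43 of 47 were below the Clu-low median. Lss, which forms the sterol rings, was at 0, 21.2 and 169.05 CPM against 0, 184.01 and 394 CPM, 4.08-fold lower, with each Clu-high cell below the Clu-low median. Idi1, an isoprenoid isomerase, was 2.65-fold lower, at medians of 17.4 and 80.6 CPM. Hmgcs1, whose promoter is printed above, was at 4.23, 110.8 and 1751 CPM against 27.7, 344 and 1021 CPM, 1.71-fold lower. Srebf2, the factor that drives these genes, at 131.03 against 185.2 CPM, and Insig1, at 18.9 against 19.6 CPM, did not pass.

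The receptors of clusterin were read beside its gene. Of 8 compared receptors and partners, 2 were lower, Lrp8 among them, and 0 higher. Lrp8, a receptor for clusterin and reelin, was at 0, 7.30 and 126.6 CPM in Clu-high cells and 0, 73.4 and 208 CPM in Clu-low cells, 3.81-fold lower. Lrp2, at 1.13 against 22.4 CPM pooled, had a median of 0 in both classes and did not pass. Of 19 compared chaperones, the family clusterin belongs to by function, 2 were higher and 3 lower, a share near that of all genes. Hspb1, a small heat shock protein, had a ratio of 3.604. Hspd1, the mitochondrial chaperonin, was at 34.8, 210 and 677 CPM against 41.9, 543 and 910 CPM, 2.19-fold lower, and it overlaps its partner Hspe1, which was also lower.

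Few nuclear genes of energy supply and protein folding passed the fold, in counts to be read against the 11.3% of all genes that were lower. The 23 nuclear genes of oxidative phosphorylation summed to 3173, 7812 and 12586 CPM in Clu-high cells and 8101, 10596 and 13296 CPM in Clu-low cells. Only 2 passed, Cycs and Atp5g1, 0 were higher, and the median ratio was 0.70. Cycs, cytochrome c, was at 24.5, 286 and 841 CPM against 323, 636 and 1131 CPM, 2.09-fold lower, and 95.7% of Clu-high cells were below the Clu-low median. Of the genes of the mitochondrial genome, 4 of 13 were higher and 0 lower, with a pooled ratio of 1.39, beside the higher mitochondrial share given above. Among those called, mt-Nd3 had a ratio of 1.44 without Acinar22 and mt-Nd4l 1.45 without Acinar156, both under the fold. Of the unfolded protein response, 4 of 19 were lower, among them Hsp90b1, a chaperone of the endoplasmic reticulum, with medians of 824 and 1680 CPM, and 1, Ddit3, was higher at 25.3 against 12.3 CPM. Of 20 glycolysis genes 3 were lower and 0 higher, including Ldha, 1.52-fold lower, and 1.48-fold lower, short of the fold, without Acinar65. Of 20 NRF2 genes 1 was higher, Hmox1, with a ratio of 2.56, and 0 lower.

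Duct genes divided. Of 18 compared, 8 were higher and 1, Ambp, lower, at 638 against 964 CPM. Cldn4, a tight junction claudin, was at 155.1, 951 and 3295 CPM in Clu-high cells and 0, 236 and 841 CPM in Clu-low cells, a ratio of 4.16. Sox9, the transcription factor of ducts and progenitors, was at 0, 87.9 and 658 CPM against 0, 20.2 and 173.3 CPM, a ratio of 3.29. Slc4a4, the bicarbonate transporter, had 3.52, and Spp1, osteopontin, 3.04, at medians of 2066 and 713 CPM. The duct keratins did not pass. Krt7 was at 637, 2759 and 6891 CPM in Clu-high and 251.1, 3922 and 12101 CPM in Clu-low cells, and Krt19 had medians of 1370 and 1789 CPM.

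Krt8, a keratin of simple epithelia, was present in every cell of both classes, and both had little acinar RNA despite the label of the cells. Krt8 was at 2989 CPM or more in Clu-high and 2467 or more in Clu-low cells. The 31 acinar markers summed to a median of 181.9 CPM in Clu-high and 165.8 CPM in Clu-low cells, with 1 of 8 compared higher, Prss2, a trypsinogen, at 23.9 against 11.1 CPM. Acinar55 held 30.2% of the Clu-high UMIs of Prss2, and without that cell its ratio was 1.38 against 1.80 with it, under the fold. Pooled they stood at 1285 against 252 CPM, but Acinar55 alone held 62.8% of the Clu-high UMIs of Ctrb1, chymotrypsinogen, and at the median Ctrb1 was 82.5 against 82.4 CPM. Without Acinar55 and the 4 other cells named above, the pooled ratio of the acinar list was 1.81 against 5.09 with them, and without Acinar155 as well it was 0.89. The cells left out were all Clu-high and were picked after the data were seen. Clu-low cells, with up to 12200 CPM of this list, stayed in, so these ratios come from trimming 1 class only. Gastric genes were likewise set by few cells. Of 12 compared, 3 were lower, among them Sult1c2, a sulfotransferase, at 0, 25.1 and 339 CPM against 10.3, 271 and 1235 CPM. Tff1, the trefoil peptide, had medians of 180 and 295 CPM but pooled levels of 1816 and 886, and Acinar22 held 53.3% of its Clu-high and Acinar98 31.3% of its Clu-low UMIs. The pooled ratio of the gastric list was 1.36, and 0.41 without the 5 Clu-high cells, with Clu-low cells of up to 148863 CPM kept.

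The lists that follow are small, and over all genes compared 12.1% were higher and 11.3% lower. Of genes linked to injury and metaplasia, 5 of 20 were higher and 3 lower, in mixed directions. Lgals3, a galectin, had medians of 352 and 865 CPM and was 2.48-fold lower, and Tff2, a mucosal trefoil peptide, was 3.40-fold lower. Mmp7, a protease of metaplastic ducts, and Anxa1 did not pass, at 1570 against 1354 and 381 against 491 CPM. Of simple epithelial genes 4 of 20 were higher and 0 lower, led by Cldn6 at 3.39. Squamous genes gave 2 of 8 higher, Ivl, a cornified envelope protein, at 3.18 and Sprr1a at 2.39. Of 13 genes of Wnt and progenitors, 4 were higher and 1 lower. Sox4, a progenitor factor, was at 26.4, 407 and 1472 CPM against 0, 69.3 and 432 CPM, a ratio of 3.85, and Wnt7a, a ligand, had 3.45. TGF-beta genes gave 3 of 17 higher, among them Smad3 at 2.03, and 1 lower, Id1. Of 18 genes of the EGF receptor pathway 1 was higher, Egfr itself, with medians of 136.7 and 71.9 CPM, and 0 were lower. Of 7 Notch genes 0 were higher and 1, Jag2, lower. Of 20 genes of regenerating or fetal-like epithelium 3 were higher (15%) and 2 lower (10%), shares near those of all genes. Of 13 foregut transcription factors 4 were higher and 0 lower. Endothelial markers summed to 18.8 against 23.4 CPM, with only Pecam1 compared, which was lower at 4.10 against 15.6 CPM, close to the least level compared. Endocrine markers summed to 62.9 against 52.2 CPM, with 0 of 2 compared past the fold.

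Since G2/M genes differed between the classes, the comparison was repeated among cells below the median summed G2/M level of all cells kept (1334 CPM), which left 42 Clu-high and 12 Clu-low cells. There 1634 genes were higher and 831 lower, including 76.9% of those higher and 44.2% of those lower over all cells, and 3 genes were called in the opposite direction. Cholesterol synthesis had a pooled ratio of 0.49 with 17 of 20 again lower, against 0.51 over all cells. S phase genes had 0.43, the p53 list 2.32, YAP targets 2.53 and the acute phase list 3.12. Nuclear oxidative phosphorylation had 0.66, and 13 of 23 now passed as lower.

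Among these cells of low G2/M level some genes differed by more. Trf, the iron carrier transferrin, was at 291 against 4.15 CPM, a ratio of 32.4 against 9.03 over all cells. Acinar30 held 24.1% of all Clu-high UMIs of Trf. Fn1 had 29.5, Sox4 12.6 and Cp 12.4. The duct keratins passed the fold here, with Krt7 at 2840 against 5844 CPM and Krt19 at 1724 against 3404 CPM, both lower in Clu-high cells, beside Anxa2 and S100a6, calcium-binding proteins that were also lower. Ctsd no longer passed, at 705 against 568 CPM. With only 12 Clu-low cells, a few cells can set these values. At or above the median there were 5 Clu-high and 29 Clu-low cells, and between these 626 genes were higher and 1047 lower. There S phase genes had a pooled ratio of 1.57, the reverse of that over all cells, and immediate early genes 0.85.

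**Figure D5:**
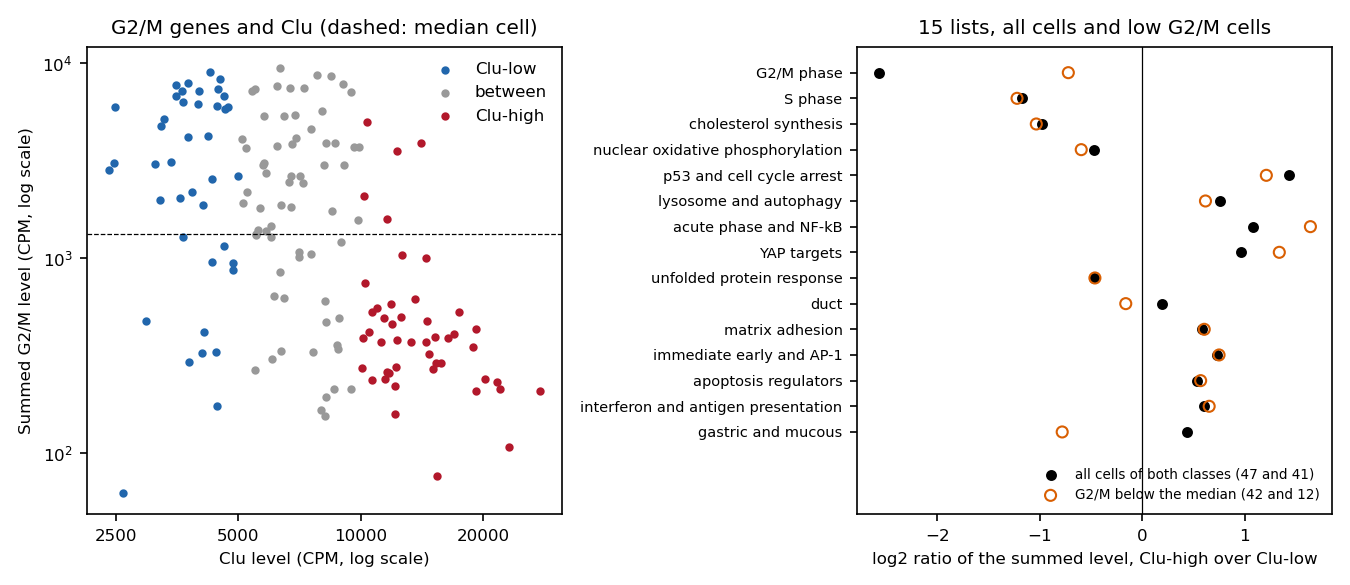
Left, summed G2/M level against Clu level (both CPM, log axes) in the 88 cells of both classes and the 67 between, with the median cell as a dashed line; 42 of 47 Clu-high and 12 of 41 Clu-low cells lie below it. Right, log2 ratio of the summed level of 15 lists, Clu-high over Clu-low. Filled points are all cells of both classes and open points the cells below that median. These cells were selected by the G2/M level, so the move of that list toward 0 is built into the choice. Cholesterol synthesis hardly moves.

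The genes most like Clu were sought over all cells kept by Spearman's rho with Clu among 4458 genes of at least 50 CPM. These values describe the cells from which the classes were drawn, and CPM values of a cell share a total. The 5 highest were App at 0.63, Btg2 and Itm2c at 0.62, and Rab11fip5 and Slc4a4 at 0.61. App, the amyloid precursor, whose amyloid peptide clusterin binds, was at 100.6, 989 and 1956 CPM in Clu-high and 235, 445 and 1869 CPM in Clu-low cells. Itm2c, a membrane protein of the BRI family, had a ratio of 2.41, and Rab11fip5, an effector of recycling endosomes, 4.84. App overlaps several annotated genes whose reads may not be separable from its own.

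The 5 lowest were Gm10053 and Cycs at -0.68, Lsm4 at -0.66, and Prkar2a and Eif5a at -0.65. Gm10053 is named and placed as a gene of its own on chr19:24875686-24876631, and its level was close to that of Cycs, with medians of 266 and 286 CPM in Clu-high cells and 587 and 636 in Clu-low cells. Whether its reads came from Cycs was not tested. Lsm4, of the RNA-binding Sm-like ring, was at 55.7, 148.5 and 343 CPM against 41.9, 374 and 531 CPM, with every Clu-high cell below the Clu-low median. Eif5a, a translation factor, was 1.71-fold lower and Prkar2a, a regulatory subunit of protein kinase A, 2.29-fold lower.

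The remaining genes at the upper end were mostly detected in a part of the Clu-high cells. 2610307P16Rik, a transcript without a protein product on chr13:28460034-28885620, had the highest ratio of all genes called, 14.1, at 0, 93.5 and 1158 CPM in Clu-high cells and 0, 0 and 56.6 CPM in Clu-low cells. It was detected in 35 of 47 and 12 of 41 cells. Its span holds other annotated genes, which may share its reads. Socs2, a suppressor of cytokine signalling, had 8.93 and was detected in 37 and 16 cells. Akap12, a scaffold of protein kinase A, had 8.87, with 28.3% of its Clu-high UMIs in Acinar84, and 6.69 without that cell. Inhba, the activin A subunit, had 8.55, with 23.3% of its Clu-high UMIs in Acinar155, and 6.77 without it. Sema5a, a semaphorin, had 8.03, with 22.3% of its Clu-high UMIs in Acinar140. Rgs17, a regulator of G proteins, had 7.82, and Map1b, a microtubule protein, 6.98. Pvt1, the noncoding neighbour of Myc, had 6.60, while Myc itself was at 28.7 against 24.98 CPM and did not pass. Fbxo32, a ubiquitin ligase known from muscle atrophy, had 6.15. Of the lower genes outside the cell cycle, Apod, which encodes apolipoprotein D, had the widest difference, 7.91-fold lower, with 35.9% of its Clu-low UMIs in Acinar62.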

How the data were processed

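The authors deposited raw UMI counts and raw read counts, 1 row for each of 179 cells and 32100 Ensembl gene identifiers, with no normalization. Per the submitters' processing notes, STAR, featureCounts, GRCm38 and mm10 were used, with no roles or versions stated; the collapsing of UMIs and the use of strand are not given in the sources used here. Each row carries the name of a cell, and 31985 identifiers had a symbol. The 155 cells with at least 40000 UMIs were used, without Acinar5, 6, 44, 105, 182 and 188; no doublet caller was run. UMIs were summed over the cells of a class and divided by their summed total (CPM); intervals are exact 95% Poisson intervals, and those of ratios are exact for a ratio of counts. Only counting error is covered, since all cells form 1 sample. The call rule was checked on simulated counts, in which cells of a class differed by depth and counting error only. Such counts cannot show how often the rule calls genes in real cells, which vary more.

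Named genes are the 15 highest and 15 lowest ratios called, for each of 35 lists the 3 most abundant members and the members past the fold (at most the 6 of largest ratio), the 5 highest and 5 lowest rho with Clu, and a few fixed genes; the others in the text were named after their values were seen. A few genes that the rule names are not reported here. The members and lists were chosen with earlier results of these data known. Motifs were searched on both strands, with promoters matched by symbol. Other settings covered read counts, totals, thinning, depth, limits of Clu, fold and added CPM, title numbers, G2/M level, leaving out single cells and scran size factors. Scripts ran in R 4.3.3 (scran 1.30.0) and in Python 3.11.15, using scipy 1.17.1, pandas 2.3.3, matplotlib 3.10.9 and numpy 2.4.6.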

Additional observations from a re-analysis of the deposited data

How the results depend on the processing

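Against 1237 genes higher and 1152 lower, the counts were 492 and 559 with a minimum of 50 CPM, 689 and 679 with 20 CPM added, 469 and 426 with a fold of 2, 814 and 834 with Clu limits of 8000 and 6000 CPM, and 626 and 1047 among cells at or above the median G2/M level. The first 3 of these settings compare fewer genes or ask for more. The cause of the others was not tested. With 1 CPM added they were 1458 and 1343, with read counts 1229 and 1138, with thinning to 40000 UMIs 1121 and 1003, and with scran size factors 1211 and 1201. Similar counts hide changes in the genes called. After thinning, 65.2% of the higher and 68.3% of the lower genes were called again, and with read counts 86.5% of each. The pooled ratio kept its direction after thinning for 99.9% of the higher and 99.7% of the lower genes. Title numbers up to 96 gave 1387 and 1263, and those from 97 on 1306 and 1246. Over 27 settings, 4 of them chosen after seeing the data, 4658 of 4725 values of reported genes past the fold and 395 of 404 of lists kept their direction. Past the fold here means the pooled ratio alone, so genes that were not called, such as Tff1 and Ctrb1, are counted too. Part of this agreement was fixed in advance. The values of Clu are among those of the genes, and the limits of the classes set its direction. Settings of the minimum CPM, the fold and the added CPM cannot turn a direction. The limit of 5% mitochondrial UMIs and leaving out Acinar52 removed no cell of either class. Depth limits what genes under 10 CPM can show. No paired analysis was possible because no result comes from a test and all cells form 1 group.

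Directions that reversed are given as pooled ratios, and the cause was not tested. With the fibroblast-rich cells put back, the fibroblast list had 0.0574, Serpine2 0.40, Nr4a1 0.67, Lamb1 0.97 and Nes 0.64. Below the median G2/M level, Sprr1a had 0.98 and Gja1 1.16. With the S level added to that limit, Sprr1a had 0.86, Gja1 1.20, Ccl20 1.14 and the squamous list 0.93. Without Acinar22, Acinar55, Acinar108, Acinar155, Acinar158 and Acinar172, all of them Clu-high, the squamous list had 0.99 and the acinar list 0.89. Without the cell richest in the gene, Tff1, which was not called, had 0.99 against 2.04 with it. At or above the median G2/M level, with 5 Clu-high cells, lists reversed to 0.89 (acinar), 0.85 (immediate early), 1.57 (S phase), 0.89 (Wnt) and 0.60 (immune). There, genes with ratios below 1 were Fbxo32 0.66, Ddit3 0.89, Cldn6 0.98, Krt23 0.53, Cdh1 0.95, Gadd45b 0.95, Junb 0.76, Klf6 0.79, Atf3 0.84, Jun 0.59, Itgb6 0.85, Ltbp1 0.61, Cflar 0.94, Vcl 0.59, Ifi27 0.94, Irf1 0.75, Prom1 0.66, Sox4 0.99 and Gata4 0.84. Those above 1 were Rrm1 1.13, Pcna 1.60, Mcm6 1.66, Rrm2 1.17, Tyms 1.11, Prim1 1.26, Mcm5 1.56, Wfdc2 1.05, Jag2 1.30 and Prkar2a 1.01.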
